A study of Mus musculus with 20 samples.

Results

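Sorted CD4 T cells from inflamed mouse colon carried RNA of genes that mark other cells of the gut. The 37 marker genes described here were taken by symbol from the 39179 gene IDs counted in each library. They comprise 18 epithelial, 10 myeloid, 5 stromal and endothelial, 2 erythroid and 2 B cell genes. They were chosen by cell type and not by a threshold on measured values, but with earlier results of these data known. In the transfer part of the study, CD4 T cells of Il6ra-/- mice (CD45.2) and of wild-type mice (CD45.1), all C57BL/6 carrying an Il17f/Thy1.1 reporter allele, were cultured for 6 days with irradiated splenic antigen-presenting cells, anti-CD3, blocking antibodies to interferon gamma and IL-4, hyper-IL-6 (20 ng/ml) and TGF-beta (2.5 ng/ml). Hyper-IL-6 joins IL-6 and the soluble form of its receptor in 1 protein, so it acts on cells that lack the membrane receptor. Thy1.1+ cells, which had switched on the reporter, were sequenced before transfer (2 Il6ra-deficient and 2 wild-type libraries). For each genotype, 200000 of these cells were injected together into Rag1-/- recipients, which lack their own T and B lymphocytes but keep epithelium, stroma and myeloid cells. After 4 weeks live CD4+ TCRb+ colon cells were sorted by CD45 type and sequenced as pools (3 Il6ra-deficient and 3 wild-type libraries). Library 0 of each colon and pre-transfer group came from experiment 1, and libraries 1 and 2 from experiment 2. The culture part served as background, with libraries in duplicate of 6-day cultures with hyper-IL-6 (63 ng/ml) of each genotype, of wild-type cultures with IL-6 (20 ng/ml), both with TGF-beta (2.5 ng/ml), and of naive cells of each genotype, all stimulated for 4 h with PMA and ionomycin.

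The colon wall is lined by absorptive colonocytes and by goblet cells, which secrete mucin and trefoil factor. Below that lining lie macrophages and monocytes, which clear debris with the help of complement and lysozyme, fibroblasts, which lay down collagen, and blood vessels. Keratins, claudins and mucins belong to epithelium, C1q and the receptor for colony-stimulating factor 1 to macrophages, and the globins to red blood cells, so such transcripts are widely used to look for other cells or their RNA in a sorted population. A few of these genes are also used by lymphocytes, among them Pecam1, the adhesion molecule CD31, so levels before transfer and in naive cells are given beside the colon values.

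2 promoter windows are printed because they belong to the classes described most below, hold the letters searched for and contain no base of a GENCODE exon. Each is the 250 bases upstream of a RefSeq gene start in GRCm38.p6, 5′ to 3′ on the strand of the gene, and 24 of the 37 genes had a window in the RefSeq table. C1qb codes for a chain of complement C1q. Its capitals mark a match to AGGAAGT on the opposite strand, a core recognised by PU.1, the transcription factor of myeloid cells. Clca4b codes for a surface protein of colonocytes. Its capitals mark a match to GNNATAAAA on the opposite strand, a core recognised by CDX2, a transcription factor of intestinal epithelium.
C1qb, chr4:136886201-136886450, minus strand: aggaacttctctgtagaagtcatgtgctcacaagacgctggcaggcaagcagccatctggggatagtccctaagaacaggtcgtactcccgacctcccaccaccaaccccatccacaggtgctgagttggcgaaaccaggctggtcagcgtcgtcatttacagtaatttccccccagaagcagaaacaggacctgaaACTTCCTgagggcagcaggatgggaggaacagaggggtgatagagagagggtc
Clca4b, chr3:144932530-144932779, minus strand: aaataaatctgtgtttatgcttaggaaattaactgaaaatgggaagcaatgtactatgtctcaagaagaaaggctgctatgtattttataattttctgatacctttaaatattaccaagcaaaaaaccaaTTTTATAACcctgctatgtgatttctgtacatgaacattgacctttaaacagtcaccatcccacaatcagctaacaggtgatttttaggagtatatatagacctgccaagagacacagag
On either strand, AGGAAGT was present in 4 of 6 myeloid windows, 4 of 13 epithelial windows and 7.69% of 32851 windows of all genes. GNNATAAAA was present in 2 of 13 epithelial windows and 0 of 6 myeloid windows, against 4.24% of all. CAAAGTCCA, a core recognised by HNF4A, another transcription factor of gut epithelium, was in none of the 24 windows and in 0.384% of all. No 2 motifs matched overlapping bases in the windows printed, and a match only says that the letters are there.

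Markers of T cells were high in the sorted colon cells. Cd4 lay between 1663 and 1802 CPM (the gene's count scaled to a common total of gene counts) in the 6 colon libraries, and the 11 T cell identity genes (Cd3e, Cd3d, Cd3g, Cd4, Trac, Trbc1, Trbc2, Lck, Cd2, Cd5 and Ptprc) summed to 8852 ± 474 CPM in Il6ra-deficient and 8358 ± 245 CPM in wild-type colon cells (SD, n = 3 each). None of the 11 passed the test between the genotypes in the colon or between the experiments. Il6ra, the deleted gene, was counted over its whole length and overlapped between the genotypes before transfer and in colon. It lay at 87.4 to 128 CPM in libraries labelled Il6ra-deficient and 77.6 to 89.2 CPM in wild-type libraries before transfer, and at 2.43 to 4.65 CPM in those labelled Il6ra-deficient and 4.16 to 10.7 CPM in wild type in colon. In the culture part it lay at 32.5 to 33.1 CPM in hyper-IL-6 cultures labelled Il6ra-deficient and 40.3 to 40.5 CPM in wild-type ones, and at 191 to 205 CPM in naive cells labelled Il6ra-deficient and 260 to 410 CPM in wild-type ones. The labels do not name the exons removed, so these counts do not check the labels, and Il6ra-deficient below stands for the label. Library totals ran from 12718633 to 23745060 gene counts in the transfer part and from 20160774 to 46848016 in the culture part. Wild-type colon library 2 stood apart with 4.28% of its counts from mitochondrially encoded genes, against at most 2.27% in the other 9 transfer libraries, and the counts of calls in colon that rest on it are also given without it. Each colon library is a pool, and no label ties replicates to separate animals, so that the spread behind each p-value may be technical.

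Together the 37 genes took 0.0740%, 0.0768% and 0.0643% of gene counts in Il6ra-deficient colon libraries 0, 1 and 2, and 0.140%, 0.0903% and 0.0643% in wild-type colon libraries 0, 1 and 2. Before transfer they took 0.0261% and 0.0296% in Il6ra-deficient libraries 0 and 1, and 0.0224% and 0.0285% in wild-type libraries 0 and 1. Every colon library was therefore above every library before transfer. Hyper-IL-6 and IL-6 cultures were lowest, between 0.00331% and 0.00647%. Naive cells, at 0.0291% to 0.0359%, lay near the level before transfer. Pecam1, which lymphocytes also use, had 4996 of 6188 counts in wild-type naive library 1. It had 2658 of 4502 and 2499 of 5390 counts in wild-type libraries 0 and 1 before transfer. In wild-type colon libraries 0 and 2 it had 1644 of 19898 and 2173 of 10117 counts. The totals therefore include RNA that need not come from other tissue. In bulk libraries fewer cells of a type and less RNA per cell cannot be told apart, nor can a transcript of a sorted T cell and one of another cell.

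**Figure D1:**
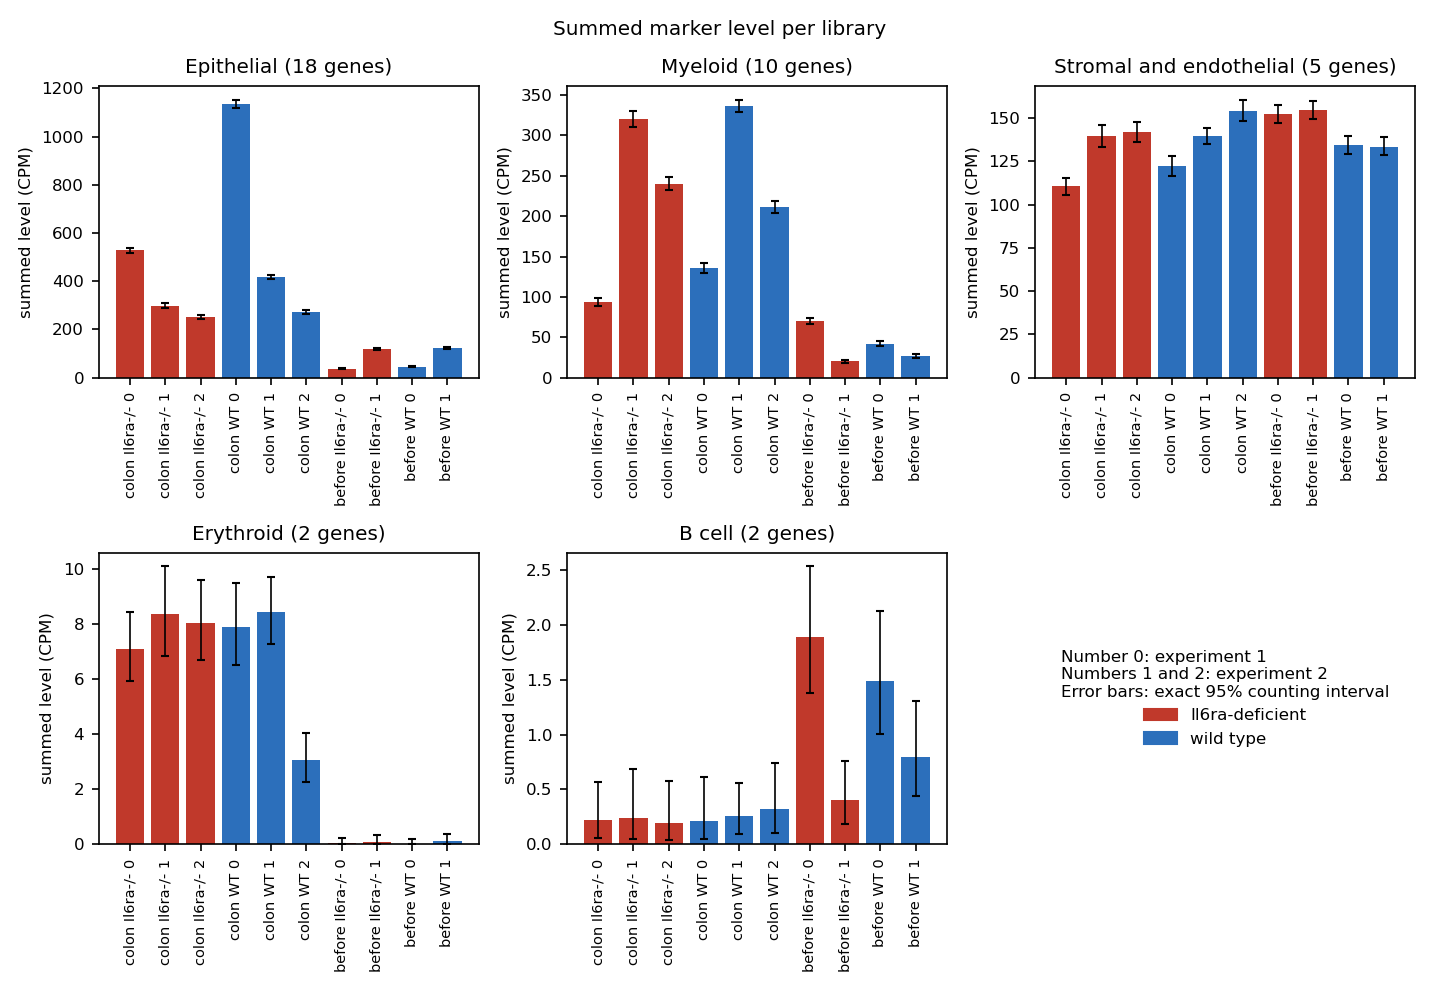
Summed level of each marker class (CPM, linear axes from 0) in the 10 libraries of the transfer part, Il6ra-deficient in red and wild type in blue, with exact 95% intervals that cover counting error only. The epithelial sum was highest in both experiment 1 colon libraries (528 and 1135 CPM) and the myeloid sum in the experiment 2 colon libraries (211 to 337 CPM).

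In Il6ra-deficient cells 26 of the 36 genes that passed the filter on low counts were higher in colon than before transfer and 0 were lower, by edgeR's quasi-likelihood test with a Benjamini-Hochberg adjusted p under 0.05. In that comparison 13.8% of all 14225 genes tested were higher and 13.2% were lower. In wild-type cells 27 genes were higher and 0 were lower, with 17.1% of all genes higher and 15.8% lower. With the replicate number as a block 26 were called in each genotype, beside 24.1% of all genes in Il6ra-deficient cells and 28.1% in wild type. Ms4a1, the gene of CD20, did not pass the filter. Genes at 0 before transfer passed it only through the colon libraries, so these counts describe the genes and lend them no further support. The wild-type count was lower without wild-type library 1 before transfer, also when the second library in doubt, colon library 2, was left out with it. The Il6ra-deficient count was lower without Il6ra-deficient library 0 or 1 before transfer, and without library 1 it included a lower gene. Each of these fits left 1 library in a group. Leaving out single libraries also moved the number of all genes called. Of the epithelial genes 15 were higher in Il6ra-deficient cells and 14 in wild type, of the myeloid genes 6 in Il6ra-deficient cells and 8 in wild type, of the stromal and endothelial genes 3 in each genotype, and both globins in each.

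**Figure D2:**
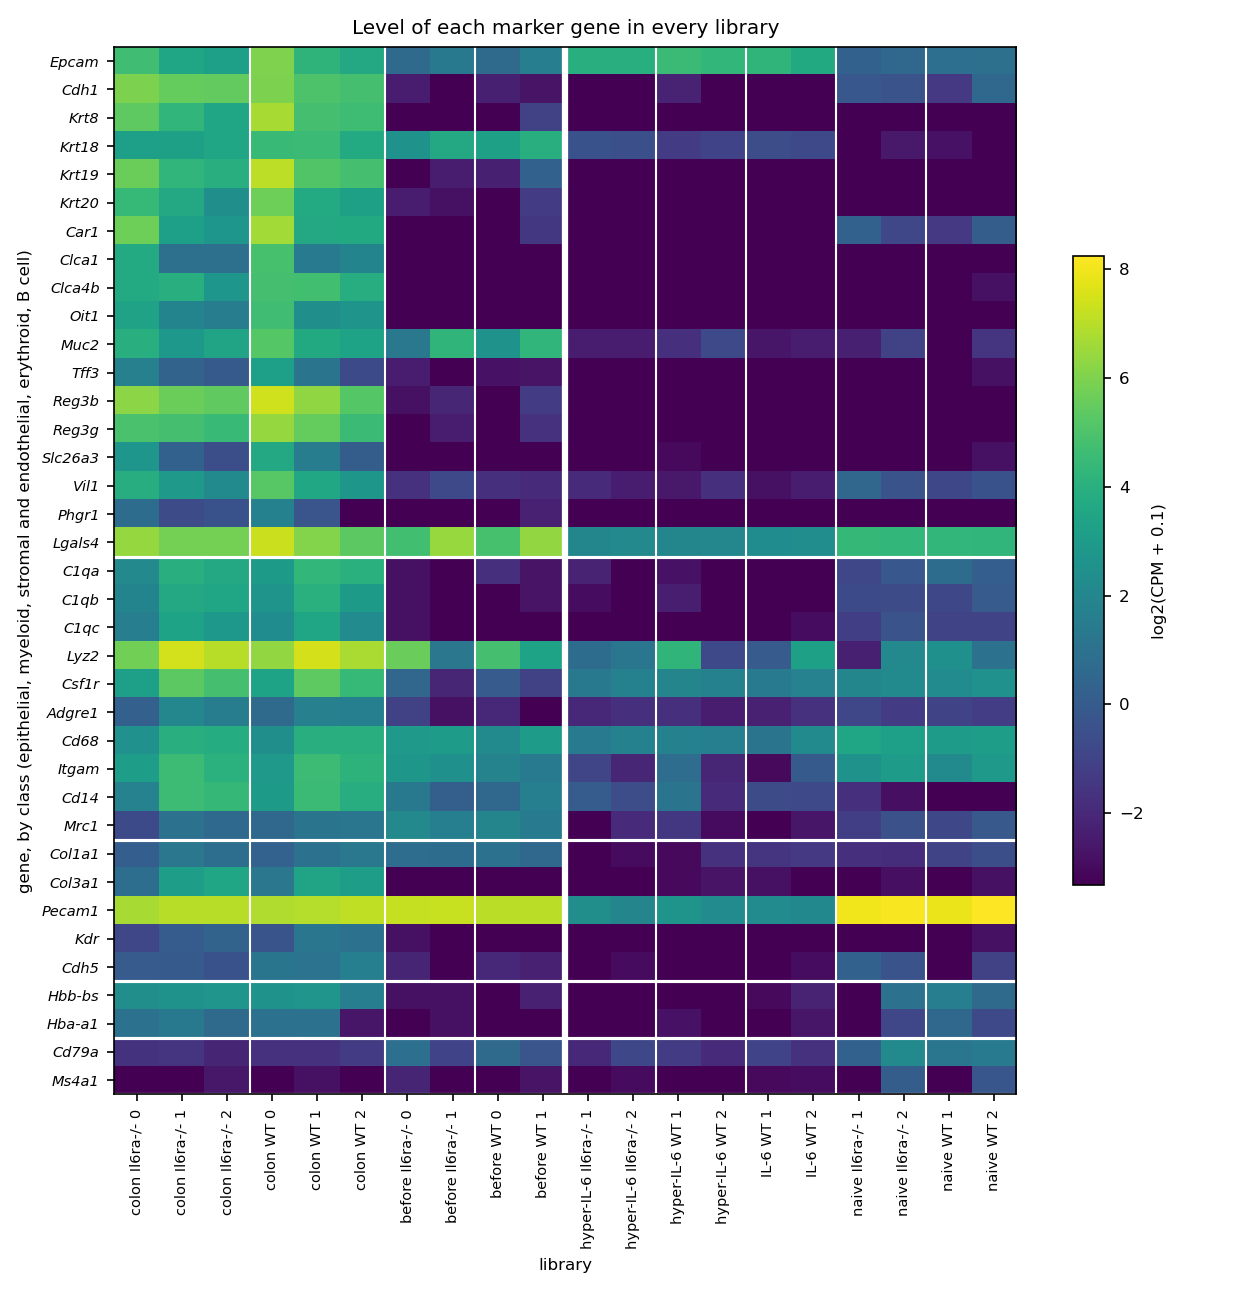
Level of each of the 37 genes as log2(CPM + 0.1) in all 20 libraries, with colon and pre-transfer libraries left of the broad white line and cultured and naive libraries right of it. Most epithelial genes were bright in the 6 colon columns and at 0 in the cultures, while Pecam1, Lgals4 and Cd68 were present in most columns.

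Epcam, the epithelial adhesion molecule on chromosome 17 (GRCm38, 87635979 to 87651129), had 26.1, 11.2 and 9.02 CPM in Il6ra-deficient colon libraries 0, 1 and 2, and 63.0, 18.4 and 12.5 CPM in wild-type ones. Before transfer it had 1.47 and 2.44 CPM in Il6ra-deficient cells and 1.49 and 2.96 CPM in wild-type cells, below every colon library. The log2 fold change of colon over before transfer was 3.12 ± 0.76 in Il6ra-deficient cells (SE, adjusted p = 0.0119, edgeR) and 3.93 ± 0.79 in wild-type cells (adjusted p = 0.00413). Epcam was also present in cultured cells at 12.9 to 23.5 CPM, above the 1.09 to 1.82 CPM of naive cells, so that it did not separate colon from culture.

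Of the keratins, the filament proteins of epithelium, Krt8 had 40.7, 19.3 and 11.0 CPM in Il6ra-deficient and 106, 28.0 and 25.3 CPM in wild-type colon libraries 0, 1 and 2. Before transfer its counts were 0 in all but wild-type library 1, which had 0.370 CPM. Krt19 had 49.2, 19.6 and 15.5 CPM in Il6ra-deficient and 136, 34.1 and 28.5 CPM in wild-type colon libraries, against at most 1.11 CPM before transfer. Krt20, a keratin of differentiated surface cells, ranged from 5.26 to 21.3 CPM in Il6ra-deficient and from 9.47 to 51.5 CPM in wild-type colon. All of these were listed at 0 in the 10 naive and cultured libraries. Krt18 behaved otherwise, with 9.08 to 11.5 CPM in Il6ra-deficient colon and 13.3 to 23.5 CPM in wild-type colon beside 5.90 to 15 CPM before transfer, and its colon level did not pass the test in either genotype. Krt8 and Krt18 lie near each other on chromosome 15 (101996698 to 102004482 and 102028180 to 102032027). Of the 50-base windows in Krt8 transcripts 26.9% were shared with another gene, mostly its pseudogene Krt8-ps, so its counts are uncertain.

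Markers of absorptive cells were at or near 0 before transfer. Car1, carbonic anhydrase 1, had 51.3, 9.20 and 6.65 CPM in Il6ra-deficient and 99.8, 12.3 and 13.03 CPM in wild-type colon libraries 0, 1 and 2. Experiment 1 libraries were several times those of experiment 2 in both genotypes. Slc26a3, the chloride exchanger of colonocytes, had 6.59, 1.10 and 0.592 CPM in Il6ra-deficient and 12.5, 2.88 and 0.953 CPM in wild-type colon, and 0 counts before transfer. Pooled over libraries it was at least 47.6-fold higher in Il6ra-deficient colon and at least 63.5-fold higher in wild-type colon than a floor of 3 counts over the group before transfer. Clca4b had 13.3, 14.9 and 6.65 CPM in Il6ra-deficient and 28.4, 26.4 and 14.6 CPM in wild-type colon and 0 counts before transfer, which is at least 178-fold and at least 305-fold higher by the same floor. Libraries 0 and 1 of each genotype lay close together, unlike those of Car1. Vil1, the microvillus protein villin, had 4.41 to 14.7 CPM in Il6ra-deficient and 6.86 to 37.7 CPM in wild-type colon, against 0.158 to 0.489 CPM before transfer. Oit1 and Phgr1, genes known mainly for their expression in gut epithelium, ranged from 2.76 to 9.86 CPM and from 0.550 to 1.61 CPM in Il6ra-deficient colon, and from 5.24 to 26.0 CPM and from 0 to 3.31 CPM in wild-type colon.

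Goblet cell genes were also highest in the experiment 1 libraries of each genotype. Clca1, a secreted goblet cell protein, had 13.4, 1.81 and 1.84 CPM in Il6ra-deficient and 29.2, 2.66 and 3.62 CPM in wild-type colon, with 0 counts before transfer, in culture and in naive cells. This was at least 98.3-fold higher in Il6ra-deficient colon and at least 130-fold higher in wild-type colon than the floor. Tff3, trefoil factor 3, had 3.16, 1.18 and 0.856 CPM in Il6ra-deficient and 9.01, 2.06 and 0.509 CPM in wild-type colon. Muc2, the main mucin of colon mucus, had 15.5, 7.00 and 10.7 CPM in Il6ra-deficient and 35.9, 12.7 and 10.2 CPM in wild-type colon, beside 2.40 and 18.7 CPM in Il6ra-deficient and 5.82 and 19.5 CPM in wild-type cells before transfer, so the stages overlapped. Lgals4, a galectin of gut epithelium, was likewise at 26.5 to 86.2 CPM before transfer and at 19.2 to 20.8 CPM in naive cells, and it ranged from 56.2 to 86.1 CPM in Il6ra-deficient and from 40.2 to 161 CPM in wild-type colon.

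Reg3b and Reg3g code for antimicrobial lectins that inflamed gut epithelium secretes, and Reg3b had the highest level per kb of exon of the 18 epithelial genes in colon. Reg3b had 73.9, 50.2 and 43.0 CPM in Il6ra-deficient and 166, 79.3 and 36.2 CPM in wild-type colon libraries 0, 1 and 2, against at most 0.317 CPM before transfer. Reg3g had 30.5, 28.3 and 22.2 CPM in Il6ra-deficient and 84.5, 45.0 and 23.8 CPM in wild-type colon. Both lie on chromosome 6 (78370657 to 78373466 and 78466269 to 78468872). Cdh1, E-cadherin, the junction protein of epithelium, had 62.0, 45.1 and 44.4 CPM in Il6ra-deficient and 61.8, 32.1 and 28.7 CPM in wild-type colon libraries, at most 0.0995 CPM before transfer, and 0.282 to 1.40 CPM in naive cells.

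Most myeloid genes were lowest in the experiment 1 colon libraries. The complement genes C1qa, C1qb and C1qc lie side by side on chromosome 4 (from 136880129 to 136898803). C1qa had 4.26, 15.8 and 12.3 CPM in Il6ra-deficient and 7.88, 20.3 and 15.8 CPM in wild-type colon libraries 0, 1 and 2. C1qb, whose promoter is printed above, had 3.66, 12.6 and 10.9 CPM in Il6ra-deficient and 6.27, 16.3 and 7.75 CPM in wild-type colon. C1qc ranged from 2.94 to 10.2 CPM in Il6ra-deficient and from 4.64 to 10.9 CPM in wild-type colon. None of the C1q genes was above 0.199 CPM before transfer, and the experiment 1 library was the lowest of its genotype for all of them except C1qc in wild-type cells, where library 2 was lower.

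Csf1r, the receptor that maintains macrophages, had 9.08, 39.8 and 28.6 CPM in Il6ra-deficient and 10.2, 41.8 and 21.2 CPM in wild-type colon, against 1.31 and 0.133 CPM in Il6ra-deficient and 0.896 and 0.370 CPM in wild-type cells before transfer. Its log2 fold change of colon over before transfer was 5.30 ± 1.0 in Il6ra-deficient (SE, adjusted p = 0.00313, edgeR) and 5.40 ± 1.02 in wild-type cells (adjusted p = 0.00294). Lyz2, myeloid lysozyme and the most abundant myeloid gene, had 54.6, 173 and 126 CPM in Il6ra-deficient and 83.1, 179 and 109 CPM in wild-type colon. It was also at 47.5 and 2.31 CPM in Il6ra-deficient and 27.9 and 10.2 CPM in wild-type cells before transfer, so that experiment 1 cells before transfer were nearer to their colon level than experiment 2 cells. The Lyz2 change did not pass in Il6ra-deficient cells (adjusted p = 0.0899, edgeR) and passed in wild type (adjusted p = 0.0477), and the difference between genotypes did not pass. With the replicate block the wild-type value was also lost (adjusted p = 0.0708). Cd14, the lipopolysaccharide coreceptor of monocytes, had 3.38, 24.3 and 20.4 CPM in Il6ra-deficient and 7.67, 23.5 and 14.6 CPM in wild-type colon, against 1.02 to 3.06 CPM before transfer. Adgre1, which codes for the macrophage antigen F4/80, ranged from 1.05 to 4.01 CPM in Il6ra-deficient and from 1.48 to 3.13 CPM in wild-type colon. Itgam, the CD11b integrin chain, had 8.47, 24.1 and 16.6 CPM in Il6ra-deficient and 7.53, 24.0 and 17.6 CPM in wild-type colon, beside 2.54 to 6.78 CPM before transfer. Its change did not pass in Il6ra-deficient cells (adjusted p = 0.0517) and passed in wild type (adjusted p = 0.00626), without a difference between genotypes that passed. Cd68, a lysosomal protein of macrophages, was as high before transfer (4.58 to 8.24 CPM) as in experiment 1 colon (5.65 CPM in Il6ra-deficient and 5.28 CPM in wild-type cells). Mrc1, the mannose receptor, had 0.498 to 1.89 CPM in Il6ra-deficient and 1.41 to 2.22 CPM in wild-type colon, below its 2.59 to 4.25 CPM before transfer, and did not pass the test.

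Of the stromal and endothelial genes, Col3a1, a fibrillar collagen of fibroblasts, had 1.72, 8.41 and 10.9 CPM in Il6ra-deficient and 2.32, 10.6 and 8.77 CPM in wild-type colon and 0 counts before transfer. That is at least 102-fold higher in each genotype against the floor of 3 counts. Kdr and Cdh5, a growth factor receptor and a cadherin of endothelium, were low but present. Kdr had 0.443, 0.943 and 1.18 CPM in Il6ra-deficient and 0.704, 2.23 and 1.91 CPM in wild-type colon. Cdh5 had 0.886, 0.865 and 0.658 CPM in Il6ra-deficient and 2.18, 2.02 and 3.05 CPM in wild-type colon, from 10 to 16 and 31 to 48 counts. Its difference between the genotypes did not pass the test over the transfer libraries. Col1a1, another fibrillar collagen, was at 0.997 to 2.28 CPM in Il6ra-deficient and 1.13 to 2.35 CPM in wild-type colon, and at 1.37 to 1.94 CPM before transfer. Pecam1 ran from 107 to 127 CPM in Il6ra-deficient and from 116 to 138 CPM in wild-type colon, was at 132 to 153 CPM before transfer and at 235 to 301 CPM in naive cells, and made up most of the class sum.

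The globin Hbb-bs had 5.15, 5.90 and 6.52 CPM in Il6ra-deficient and 5.98, 6.48 and 2.99 CPM in wild-type colon, against at most 0.106 CPM before transfer. Hba-a1 had 1.94, 2.44 and 1.51 CPM in Il6ra-deficient and 1.90, 1.93 and 0.0636 CPM in wild-type colon. Wild-type colon library 2 was the lowest for both. Near-identical copies limit these values, since 72.3% of Hba-a1 windows were shared, mostly with Hba-a2, and 53.2% of Hbb-bs windows, mostly with Hbb-bt. The same holds for Itgam (66.3%, with Gm49368), Clca4b (24.8%, with Clca4a), Lyz2 (15.4%, with Lyz1) and Car1 (13.4%, with Gm5843). Neither B cell gene was higher in colon. Cd79a, a chain of the B cell receptor complex, had 2 to 4 counts (0.132 to 0.236 CPM) in Il6ra-deficient and 3 to 5 counts (0.211 to 0.318 CPM) in wild-type colon libraries, against 0.400 to 1.77 CPM in Il6ra-deficient and 0.740 to 1.49 CPM in wild-type cells before transfer. The difference did not pass in Il6ra-deficient (adjusted p = 0.0517) or wild-type cells (adjusted p = 0.0631). Ms4a1 had 0 or 1 count in each colon library.

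The experiments differed in the balance of the marker classes. Summed epithelial levels were 528 CPM (exact 95% interval 518 to 539) in Il6ra-deficient and 1135 CPM (1117 to 1153) in wild-type colon of experiment 1, against 299 and 253 CPM in Il6ra-deficient and 418 and 274 CPM in wild-type colon of experiment 2. Myeloid sums ran the other way, at 93.6 CPM (89.2 to 98.2) in Il6ra-deficient and 136 CPM (130 to 142) in wild-type colon of experiment 1, against 321 and 240 CPM in Il6ra-deficient and 337 and 211 CPM in wild-type colon of experiment 2. The epithelial sum was thus 5.64 times the myeloid sum in Il6ra-deficient and 8.37 times in wild-type colon of experiment 1, and 0.931 to 1.30 times in the 4 colon libraries of experiment 2. Intervals cover counting error only, since PCR copies are not separate molecules. Before transfer the epithelial to myeloid ratio was 0.524 in Il6ra-deficient cells and 1.09 in wild type of experiment 1, and 5.96 in Il6ra-deficient cells and 4.55 in wild type of experiment 2. Those sums rested on few genes, since Lgals4, Muc2 and Krt18 made up 94.6% to 97.3% of the epithelial counts before transfer and the other 15 epithelial genes summed to at most 5.92 CPM. Lyz2 made up 67.6% of the myeloid counts in Il6ra-deficient cells and 66% in wild type of experiment 1, and 11.4% in Il6ra-deficient cells and 37.6% in wild type of experiment 2. Stromal, erythroid and B cell sums varied by less than 3-fold over the colon libraries. The stromal and endothelial sum, at 111 to 154 CPM, was mostly Pecam1, at 107 to 138 CPM. In plain CPM, 4 of its 5 genes were lower in both experiment 1 libraries than in all 4 of experiment 2. That share was 11.3% over all genes tested.

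A comparison of the 2 colon libraries of experiment 1 with the 4 of experiment 2, added after these values were seen and fitted with genotype and experiment as factors, called 13 of the 35 genes tested higher and 7 lower. Of all 12601 genes tested, 2.25% were higher and 2.29% lower. All 13 that were higher were epithelial, and the 7 that were lower were 6 myeloid genes and Col3a1. The median log2 difference was 1.66 over the 18 epithelial genes, -1.43 over the 10 myeloid genes and 0.00 over all genes tested. Clca1 differed most among the epithelial genes (3.00 ± 0.20, SE, adjusted p = 0.00225, edgeR), then Car1 (2.78 ± 0.15, adjusted p = 0.00103) and Slc26a3 (2.74 ± 0.39, adjusted p = 0.0136). Of the myeloid genes Cd14 differed most (-2.01 ± 0.34, adjusted p = 0.0227), then Csf1r (-1.82 ± 0.28, adjusted p = 0.0169). In plain CPM both experiment 1 libraries were above all 4 of experiment 2 for 14 of 18 epithelial genes, against 20.2% of all genes tested. Both were below all 4 for 9 of 10 myeloid genes, against 11.3% of all genes. The fit took colon libraries of the same experiment as separate replicates, though cells of both genotypes had been injected together. The 2 libraries of experiment 1 correlated at 0.580 in their deviations from group means. Standard errors and p-values of this comparison may therefore be too small.

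**Figure D3:**
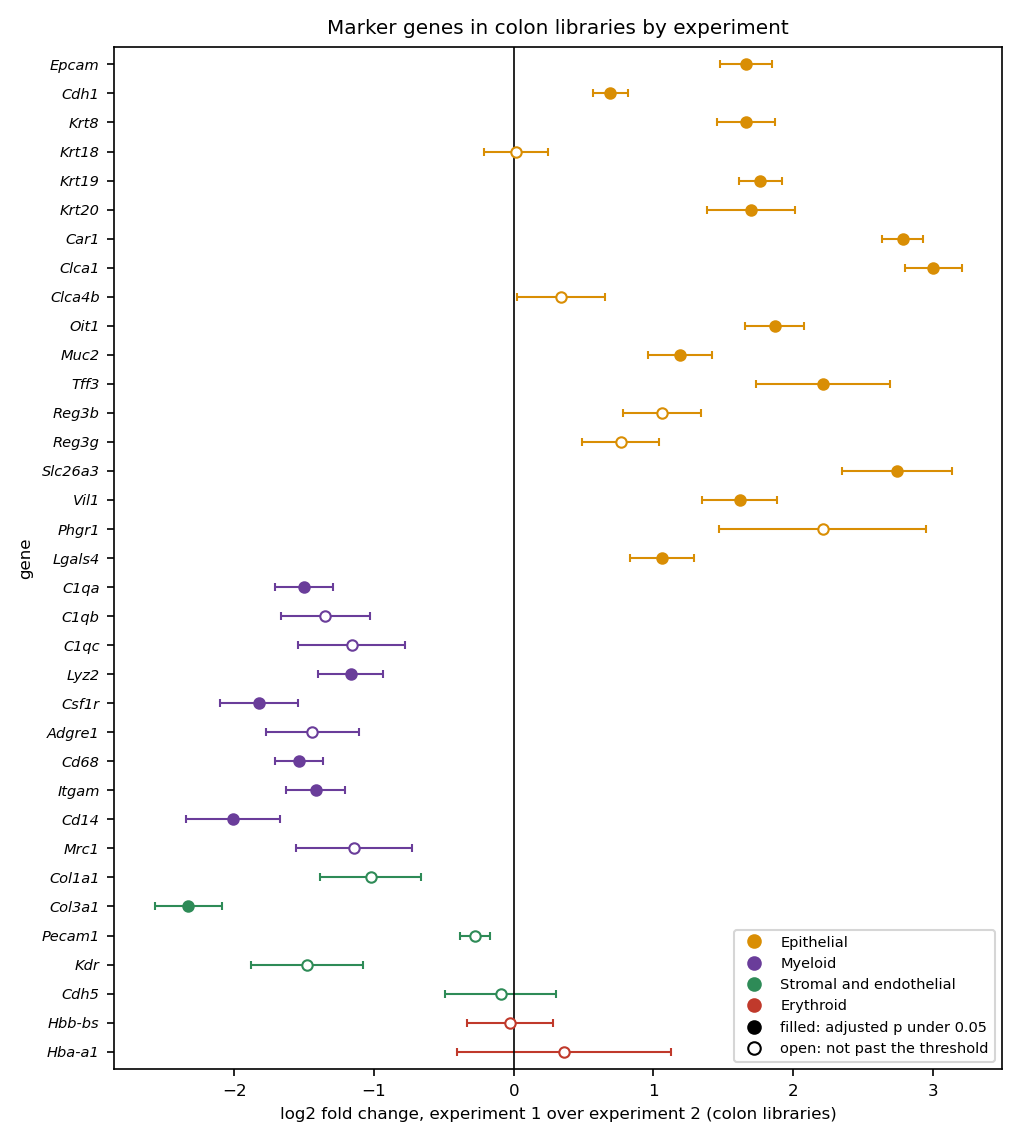
Log2 fold change of experiment 1 over experiment 2 in colon libraries for the 35 genes tested, with standard errors; filled points had an adjusted p under 0.05. Epithelial genes lie at or right of 0 and myeloid genes left of it.

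The epithelial genes did not shift by the same amount. Clca1 and Car1, at 8.58 and 7.34 times the mean level of experiment 2, Slc26a3 at 6.92 times and Tff3 at 5.29 times led the class. Epcam, Krt8, Krt19, Krt20 and Vil1 lay between 3.397 and 3.80 times. Reg3b and Reg3g, at 2.30 and 1.93 times, Cdh1 at 1.65 times, Clca4b at 1.34 times and Krt18 at 1.11 times shifted less. Krt18 (0.02 ± 0.23) and Clca4b (0.34 ± 0.32) did not pass the test, nor did Reg3b, Reg3g and Phgr1. Leaving out single libraries moved the calls over the 35 genes and over all genes together. The calls were 4 of the 35 genes and 0.249% of all genes without Il6ra-deficient library 0, and 3 and 0.281% without wild-type library 0. They were 11 and 1.32% without Il6ra-deficient library 1, 10 and 0.878% without Il6ra-deficient library 2, and 14 and 2.7% without wild-type library 1. When wild-type library 2 was left out, the one with the high mitochondrial share, they were 28 and 19.1%, against 20 and 4.54% with all 6 libraries. Where an experiment 1 library is left out, that experiment is represented by a lone library assumed to vary like the others. The time, recipients and handling of the experiments cannot be told apart.

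Further markers, grouped by cell type and named here mainly for their level per kb of exon in colon, were read in the same comparison. Of the 10 absorptive markers tested of 14, 6 were higher in experiment 1 and 0 lower, and of the 5 secretory markers tested of 12, 4 were higher and 0 lower, where 2.25% of all genes tested were higher. Dmbt1, a secreted scavenger receptor of epithelium, had 154, 67.5 and 38.6 CPM in Il6ra-deficient and 377, 95.04 and 86.1 CPM in wild-type colon libraries 0, 1 and 2. Agr2, a chaperone of mucin folding, had 19.0, 7.23 and 9.41 CPM in Il6ra-deficient and 48.4, 13.7 and 16.3 CPM in wild-type colon. Pigr, which carries immunoglobulin across epithelium, had 75.7, 17.1 and 14.2 CPM in Il6ra-deficient and 186, 28.3 and 34.5 CPM in wild-type colon. It was among the 7 of 11 junction and regulator genes that were higher in experiment 1. Of the 3 crypt genes tested none passed the test, and Axin2, the most abundant of them per kb, was also at 23.6 to 46.4 CPM before transfer.

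Of the 7 neutrophil markers tested of 9, 6 were lower in experiment 1 and 0 higher, with a median log2 difference of -3.35, where 2.29% of all genes tested were lower. S100a9, an alarmin of neutrophils and monocytes, had 2.94, 51.7 and 58.0 CPM in Il6ra-deficient and 5.49, 63.2 and 50.9 CPM in wild-type colon libraries 0, 1 and 2. S100a8, its partner, had 1.495, 24.2 and 30.4 CPM in Il6ra-deficient and 3.17, 24.3 and 12.3 CPM in wild-type colon. The experiments did not overlap for either gene. The neutrophil list also holds Il1r2, a decoy receptor that T cells can express, which had 12.2, 37.0 and 43.6 CPM in Il6ra-deficient and 54.6, 125 and 109 CPM in wild-type colon. Of the fibroblast and muscle markers 3 of 8 tested were lower in experiment 1 and 0 higher, and Dcn, decorin, had 0.775, 4.56 and 5.20 CPM in Il6ra-deficient and 1.62, 4.68 and 7.12 CPM in wild-type colon. None of the 6 dendritic and MHC class II genes tested, of the 2 endothelial ones or of the 4 erythroid and platelet ones passed the test between experiments. Mean dendritic and MHC class II sums were 316 CPM in Il6ra-deficient and 319 CPM in wild-type colon, against 146 and 219 CPM before transfer. Of the 7 tested between stages 4 were higher in colon in each genotype, beside 13.8% and 17.1% of all genes. In wild type 1 was lower, and in Il6ra-deficient cells 0. S100b, Sox10 and Elavl4, of enteric glia and neurons, were listed at 0 in every colon library, as was the B cell gene Pax5.

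Between the genotypes, most epithelial genes had lower levels in Il6ra-deficient than in wild-type colon, but none passed the test over the 10 transfer libraries. Of the 36 genes tested 0 were called, against 0.155% of all 14225 genes, and DESeq2 called 0 of them (0.935% of all genes), with 4 at an unadjusted p under 0.05. In edgeR 3 of the 36 had an unadjusted p under 0.05, all lower in Il6ra-deficient colon, namely Krt18 (-0.98 ± 0.34, SE, adjusted p = 0.680), Clca4b (-0.98 ± 0.37, adjusted p = 0.903) and Cdh5 (-1.58 ± 0.60, adjusted p = 0.861). The share of all genes under the unadjusted threshold is not given here, so these counts are no result about the members. The median log2 difference of Il6ra-deficient minus wild type was -0.95 over the 18 epithelial genes, -0.04 over the 10 myeloid genes and 0.00 over all genes tested. In data simulated for this comparison, edgeR recovered 18% of genes changed 2-fold and 90% of genes changed 4-fold.

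Same-numbered colon libraries of the 2 genotypes deviated together from their group means, and a fit of the 6 colon libraries with the replicate number as a block called 3 members. Krt8 (-1.06 ± 0.19, adjusted p = 0.0481), Krt19 (-1.07 ± 0.15, adjusted p = 0.0248) and Clca4b (-1.02 ± 0.15, adjusted p = 0.0279) were then lower in Il6ra-deficient colon, with 1.02% of all 12601 genes tested lower and 0.944% higher. In experiment 2 same-numbered libraries correlated at 0.237 and 0.183 and unlike-numbered ones at 0.205 and 0.279. Pairs 1 and 2 are therefore uncertain, and the block and the counts by pair rest on them. The colon-only block fit was added after the data were seen. Without pair 2, which holds the wild-type library with the high mitochondrial share, it called 15 members lower and 0 higher, all epithelial, with 5.08% of all genes lower and 5.89% higher. Without pair 0 it called 3 lower (1.64% of all genes lower and 1.67% higher), and without pair 1 it called 8 lower (1.21% lower and 1.02% higher). Krt8, Krt19 and Clca4b were among the calls each time, and 4 libraries leave a single residual degree of freedom. With the block and all 10 libraries, 0 members were called when numbers were shared across stages (0.274% of all genes) and 0 when kept within a stage (0.661%). In CPM, the Il6ra-deficient library was below its same-numbered wild-type library in all 3 pairs for 12 of 18 epithelial genes, 2 of 10 myeloid genes and 2 of 5 stromal and endothelial genes. For all genes tested that share was 20.8%. Without pair 2 it was below in both remaining pairs for 17 of 18 epithelial and 6 of 10 myeloid genes, against 40.4% of all genes tested. The ratio for Krt19 was 0.361, 0.574 and 0.543 in pairs 0, 1 and 2, and for Krt8 0.384, 0.687 and 0.434. Of these 12 Clca4b varied least, at 0.467, 0.564 and 0.455. Cdh1 went the other way in every pair, at 1.004, 1.41 and 1.55, where 18.1% of all genes tested were higher in all pairs. C1qa and Mrc1 were the myeloid genes lower in all pairs, and Kdr and Cdh5 the endothelial ones.

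**Figure D4:**
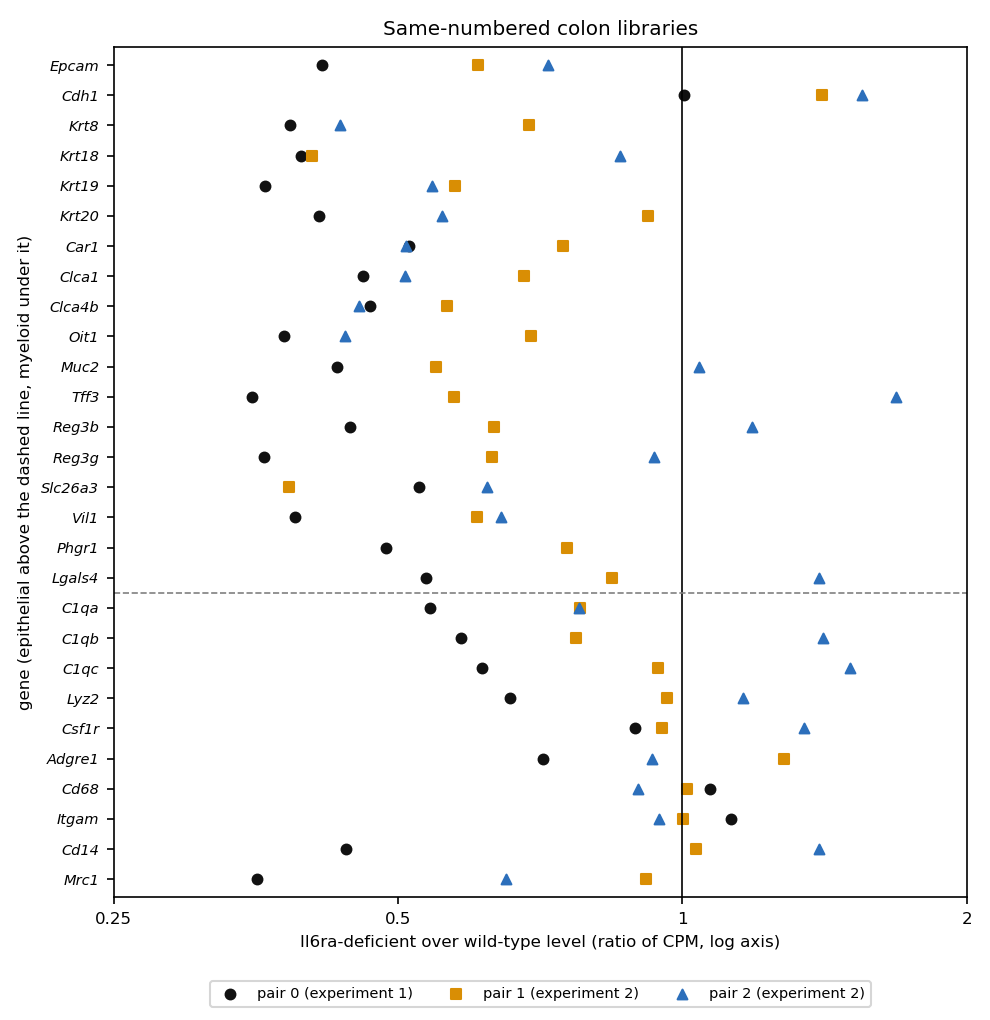
Ratio of Il6ra-deficient to wild-type CPM (log axis) for each epithelial and myeloid gene in the 3 same-numbered pairs of colon libraries. Most epithelial points lie left of 1, with Cdh1 at 1.004 to 1.55, and pair 0 of experiment 1 lies furthest left for most genes; Phgr1 in pair 2 has no point because the wild-type library had 0 counts.

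By class, the epithelial sum of the Il6ra-deficient library was 0.465, 0.714 and 0.923 times that of the wild-type library in pairs 0, 1 and 2, so the difference was largest in experiment 1. The myeloid ratio was 0.690, 0.953 and 1.14, the stromal and endothelial ratio 0.906, 0.999 and 0.920, and the erythroid ratio 0.899, 0.991 and 2.63. The stromal and endothelial ratio mostly followed Pecam1, at 0.920, 1.03 and 0.922. Group means of the epithelial sum were 360 ± 147 CPM in Il6ra-deficient and 609 ± 461 CPM in wild-type colon (SD, n = 3 each). That difference was smaller than the spread of the wild-type libraries, which includes the difference between the experiments. Myeloid means were 218 ± 115 CPM in Il6ra-deficient and 228 ± 101 CPM in wild-type colon. The other endothelial markers, led by Plvap with 0.775, 1.57 and 1.18 CPM in Il6ra-deficient and 1.62, 3.73 and 4.07 CPM in wild-type colon, summed to 0.456, 0.497 and 0.466 times the wild-type level in the 3 pairs. Those sums were low, at 1.83 to 3.54 CPM in Il6ra-deficient and 4.01 to 7.13 CPM in wild-type colon. Of these 8 genes 2 were lower in all 3 pairs and 0 higher, against 20.8% and 18.1% of all genes tested. B lymphocyte and plasma cell markers summed to 2.49, 1.81 and 1.81 times the wild-type level, mostly from Ighm, with 78.1, 33.4 and 39.6 CPM in Il6ra-deficient and 27.5, 17.2 and 13.2 CPM in wild-type colon. Ighm was at 73.4 and 132 CPM in Il6ra-deficient and 43.1 and 144 CPM in wild-type cells before transfer.

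Before transfer 0 of the 36 genes passed the test between genotypes, against 0.00703% of all genes, and 0 had an unadjusted p under 0.05 in edgeR. DESeq2 also called 0 of them (0.183% of all genes), with 2 at an unadjusted p under 0.05. For the unadjusted counts before transfer the share of all genes is likewise not given. The change from before transfer to colon differed between genotypes for 0 of the 36 genes and 0 of 14225 genes (0%). At an unadjusted p under 0.05 there were 0 members and 377 genes, and DESeq2 called 0 members and 13 genes (0.0991%). Clca1, Clca4b, Oit1, Slc26a3 and Col3a1 had 0 counts in all 4 libraries before transfer and entered the 36 through the colon libraries, so neither comparison could call these 5 genes.

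In the culture part 24 of the 37 genes passed the filter. Of these, 2 were higher and 16 lower in Il6ra-deficient hyper-IL-6 cultures than in naive cells of that genotype, with 37.5% of all 14926 genes tested higher and 34.4% lower. In wild-type cells 3 were higher and 17 lower, with 36.8% of all genes higher and 33.5% lower. Genes at or near 0 in culture passed the filter only through other libraries, so these counts are a description. Of the lower genes, 8 of 16 in Il6ra-deficient cells and 5 of 17 in wild type had at most 1 count in each hyper-IL-6 library of that genotype, among them Car1, C1qc, Cdh5 and Hbb-bs in both. The wild-type count of 20 was lower without naive library 2 or without hyper-IL-6 library 2, each of which left 1 library in its group. With the stricter filter, at least 1 CPM in 2 libraries, 8 of the 9 genes left were called in each genotype. The share of all genes called with that filter is not given here. Epcam and Krt18 were higher in both genotypes and Cd14 in wild-type cells. Pecam1 had 5.15 and 3.68 CPM in Il6ra-deficient and 6.14 and 4.70 CPM in wild-type hyper-IL-6 cultures, against 257 and 280 CPM in Il6ra-deficient and 235 and 301 CPM in wild-type naive cells, which is a log2 fold change of -6.02 in Il6ra-deficient cells and -5.70 in wild type. Lgals4 had 3.80 and 4.18 CPM in Il6ra-deficient and 3.86 and 3.96 CPM in wild-type cultures, against 20.8 and 20.3 CPM in Il6ra-deficient and 19.8 and 19.2 CPM in wild-type naive cells. C1qa, C1qb and C1qc were at 0.114 CPM or less in hyper-IL-6 cultures and at 0.347 to 1.60 CPM in naive cells. Cd79a was at 0.143 to 0.474 CPM in hyper-IL-6 cultures and 1.09 to 4.43 CPM in naive cells. Of the epithelial genes 8 had 0 counts in all 10 naive and cultured libraries, namely Krt8, Krt19, Krt20, Clca1, Oit1, Reg3b, Reg3g and Phgr1.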

How the data were processed

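RNA was sequenced from 10 libraries of the transfer part and 10 of the culture part. The deposited files hold raw counts per gene for 39179 gene IDs and 5 summary lines. The submitters' processing notes name HTSeq 0.7.2, STAR 2.5.3 and SAMtools 0.1.18, R 3.4.3 with DESeq2 1.18.1, and the GRCm38 genome. The strand setting and annotation release are not given in the sources used here. A stranded mRNA kit was used for the transfer part, per the labels' protocols. GENCODE names were found for 37693 IDs and not for 1486. Library sizes exclude the summary lines, and reads that HTSeq listed as overlapping no counted feature made up 18.1% to 31.9% of uniquely mapped reads.

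Levels are CPM over all gene counts. Folds and tests came from edgeR 4.0.16 (quasi-likelihood, TMM scaling, filterByExpr) in R 4.3.3, fitted across all genes of the 10 transfer or 10 culture libraries, with Benjamini-Hochberg adjustment over all genes tested and a threshold of 0.05. DESeq2 1.42.0, other filters and scalings, a replicate block, an experiment term and leaving out each library were alternatives. The comparison of experiments in colon and the colon-only fit with the block, also without each pair, were added after the data were seen. Class sums are summed counts with exact Clopper-Pearson 95% intervals. A floor of 3 counts over the group stood for groups at 0. Shared sequence was measured as the share of 50-base transcript windows found in another gene. The procedure was tested on simulated data with 200 changed genes.

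Same-numbered colon libraries correlated in their deviations from group means at 0.580, 0.237 and 0.183, so numbers were taken as pairs within the colon. Unlike-numbered experiment 2 libraries correlated as highly, at 0.205 and 0.279. Across stages no such correlation was above 0.0793.

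The genes and marker lists were chosen with earlier results of these data known. All 37 genes and the 11 T cell identity genes are named. Genes of the other lists were drawn from the up to 3 of each with the highest mean CPM per kb over the colon libraries. Not all of these are named. Pax5, S100b, Sox10 and Elavl4 were named after their values were seen, as markers at 0 in colon.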

Additional observations from a re-analysis of the deposited data

Results flagged for a closer look

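Wild-type cells cultured with IL-6 entered no comparison above, and 3 of the 37 genes had at least 10 counts in both IL-6 libraries and a higher level in both than in either wild-type naive library. Epcam averaged 15.7 CPM in IL-6 cultures, against 1.74 and 1.82 CPM in wild-type naive libraries. Krt18 averaged 0.523 CPM in IL-6 cultures, against 0.0470 and 0 CPM in wild-type naive libraries. Cd14 averaged 0.512 CPM in IL-6 cultures and had 0 counts in both wild-type naive libraries. These differences were not tested.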

How the results depend on the processing

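The genes called between genotypes in the colon stayed at 0 members under every alternative run except the colon-only fit with the replicate block, which called 3, and 3, 8 and 15 without pair 0, 1 and 2 (416, 284 and 1414 of all genes). Over all genes the 22 calls became 120 without a low-count filter, 133 with DESeq2, 108 with the compared groups only, 39 with the replicate block, 42 with an experiment term, 94 with the replicate block within stage, 247 with the compared groups only with replicate block, 102 with experiment 2 libraries only, and 0 to 37 when single libraries were left out. Before transfer the 1 call became 17 without a filter, 26 with DESeq2, 0 with the compared groups only, 2 with an experiment term, 5 with the block within stage, and 0 to 1152 with single libraries left out. For the difference in change between genotypes the count of 0 became 13 without a filter, 13 with DESeq2, and 0 to 597 with single libraries left out. The number of members called between colon and before transfer moved in both genotypes when single libraries were left out, and so did the number of all genes called. The replicate block gave 26 members in each genotype. Of the calls there it changed that of Lyz2 in wild-type cells (adjusted p = 0.0708). In Il6ra-deficient cultures, whose numbers share no measured pairing, it added Cd14 (adjusted p = 0.0429) and Ms4a1 (0.0205) and dropped Hba-a1 (0.0615), all in edgeR.

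In culture the members called became 8 in each genotype under the stricter filter, 13 in wild-type cells with the compared groups only, and 12 to 19 in Il6ra-deficient cells and 12 to 18 in wild type with single libraries left out. The comparison of experiments called 1711 genes without a filter and 1003 with DESeq2, against 572, and 32 to 2472 genes and 3 to 28 members with single libraries left out. Genes with 0 counts in both groups of a reduced fit gave no value.

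Class sums moved with the library chosen. With the experiment 1 library alone, epithelial sums were 528 CPM in Il6ra-deficient and 1135 CPM in wild-type colon, stromal and endothelial sums 111 and 122 CPM in the same order, and the Il6ra-deficient myeloid and erythroid sums 93.6 and 7.09 CPM. Without the most abundant member, the Il6ra-deficient and wild-type sums were 100.5 and 104 CPM for myeloid, 10.3 and 13.1 CPM for stromal and endothelial, 1.96 and 1.30 CPM for erythroid, and 0.0219 and 0.0143 CPM for B cell genes. Leaving out single libraries gave epithelial means of 276 to 413 CPM in Il6ra-deficient and 346 to 777 CPM in wild-type colon, and myeloid means of 167 to 280 CPM and 173 to 274 CPM in the same order. Stromal and endothelial means were 125 to 141 CPM and 131 to 147 CPM, erythroid means 7.56 to 8.18 CPM and 5.47 to 8.15 CPM, and B cell means 0.209 to 0.229 CPM and 0.234 to 0.288 CPM, again in that order.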
